A study of Homo sapiens with 6 samples.

Results

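The 9 genes described here encode core factors of nonsense-mediated mRNA decay (NMD), namely UPF1, UPF2, UPF3A, UPF3B, SMG1, SMG5, SMG6, SMG8 and SMG9. They were taken by gene name from a table of 32679 genes measured by paired-end RNA sequencing in HEY cells, a human ovarian cancer cell line. No rule on their values was used, but earlier results of these data were known when they were chosen. The 6 samples were 3 shNC samples, which carry a negative control hairpin and are labelled as untreated, and 3 shPQBP1 samples, which carry a hairpin against PQBP1 under a doxycycline-inducible promoter and received 1 µg/ml doxycycline. All 6 samples are labelled as day 3. The labels call each group a biological triplicate, and p-values measure only the spread between these samples of 1 cell line. Doxycycline was thus given to the shPQBP1 samples and not to the shNC samples, so that the drug and the loss of PQBP1 cannot be told apart. The hairpins were delivered by lentivirus with puromycin selection, and whether the cells were pools or single clones is not given in the sources used here. PQBP1, a nuclear polyglutamine-binding protein that takes part in pre-mRNA splicing, was the target of the hairpin. The study considers decay of a BAX splice isoform by NMD, and the question asked here is whether the mRNAs of the decay factors themselves differ when PQBP1 is low.

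NMD is a quality control pathway that degrades mRNAs on which translation stops too early. UPF1, an ATP-dependent RNA helicase, binds the mRNA near the stalled ribosome, and UPF2 bridges it to UPF3B or UPF3A, which touch the exon junction complex left downstream by splicing. The kinase SMG1, held in a complex with SMG8 and SMG9, then phosphorylates UPF1, and the phosphorylated protein recruits the endonuclease SMG6 and the adaptor SMG5, which helps to bring in deadenylation and decapping enzymes. mRNAs of several of these factors are themselves known substrates of the pathway.

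In these data none of the 9 factor mRNAs passed the test at an adjusted p under 0.05 (limma with Benjamini-Hochberg adjustment over 11413 genes). Of all genes tested, 2.91% passed. The 2 effectors and the kinase partner SMG8 had the smallest p values. SMG5, SMG6, SMG8 and SMG9 were each lower in all 3 shPQBP1 samples than in any shNC sample, as were 17.1% of all genes tested. SMG1 was higher in all 3, as were 17.3% of all genes tested. The log2 fold changes of SMG5, SMG6 and SMG8 lay between -0.47 and -0.40, with adjusted p values of 0.0592 to 0.0739 (limma). That of SMG9 was -0.24 (limma, adjusted p = 0.226). The core factors UPF1, UPF3A and UPF3B had log2 fold changes between -0.09 and 0.10. SMG1 and UPF2 had the highest log2 fold changes, 0.79 and 0.64, and these were 0.38 and 0.29 without shNC sample 1, in which both mRNAs were low.

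The 9 genes lie at separate loci, and their positions are given on hg38 from GENCODE, with the exon number of the canonical transcript. UPF1 lies at chr19:18831959-18868230 on the plus strand with 24 exons, and SMG9 at chr19:43727983-43754962 on the minus strand with 14 exons. UPF2 lies at chr10:11920022-12043170 on the minus strand with 22 exons. UPF3A lies at chr13:114281601-114305817 on the plus strand with 10 exons, and its paralog UPF3B at chrX:119834022-119852998 on the minus strand with 11 exons. SMG1 lies at chr16:18804860-18926408 on the minus strand with 63 exons. SMG8, with 4 exons, lies at chr17:59209400-59215239 on the plus strand, and SMG6, with 19 exons, at chr17:2059839-2303785 on the minus strand. SMG5 lies at chr1:156249224-156282825 on the minus strand with 22 exons.

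RefSeq promoter sequences on GRCh38.p14, covering 250 bases before and 50 after the start, were matched for 8 of the 9 genes, all except SMG8. The promoters of UPF3A, UPF3B and SMG5 held the 8-base word TCGCGAGA or its reverse complement TCTCGCGA, a word found in 404 of 35116 promoters of the same length, or 1.15%. The word was picked after these sequences were read, so that 3 of 8 promoters is a description without a test. The windows around it are shown 5′ to 3′ on the strand of the gene, with the word in capitals, because 2 of them belong to the UPF3 paralogs and the last to SMG5, whose mRNA was lower in the shPQBP1 samples. They lie at chr13:114281547-114281600 (plus strand, ending at the base before the start), chrX:119853035-119853124 (minus strand, ending 71 bases before the start) and chr1:156282826-156282946 (minus strand, ending at the base before the start). The start meant is that of RefSeq, which for UPF3B lies 35 bases away from the GENCODE start.
UPF3A: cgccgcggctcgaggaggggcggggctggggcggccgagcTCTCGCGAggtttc
UPF3B: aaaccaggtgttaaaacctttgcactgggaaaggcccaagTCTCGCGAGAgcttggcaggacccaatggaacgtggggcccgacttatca
SMG5: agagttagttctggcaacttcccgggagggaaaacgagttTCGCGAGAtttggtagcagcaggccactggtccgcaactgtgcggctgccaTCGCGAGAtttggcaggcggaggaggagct
UPF3A held 1 copy. UPF3B held the word and its reverse complement as 2 overlapping matches, and SMG5 held 2 separate copies. Other words were also searched on both strands. The GC-box word GGGCGGG was found in 6 of 8 promoters and in 33.08% of all promoters. CACGTG was found in 1 of 8 (UPF2) and in 7.26% of all, and TGACGTCA in 0 of 8 and in 1.85% of all. Promoters with the TCGCGAGA word belonged both to SMG5 and to UPF3A and UPF3B, whose levels overlapped between the groups.

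The values are FPKM as deposited, which are fragment numbers scaled to the length of the transcript and to the mapped fragments of the sample. Depth in reads is unknown, since the table holds no counts, and no counting interval was given. PQBP1 measured 7.18, 6.67 and 6.93 FPKM in the shNC samples and 1.68, 1.72 and 1.44 FPKM in the shPQBP1 samples, with a log2 fold change of -2.04 ± 0.10 (SE, limma, adjusted p = 0.00154). FPKM totals ran from 278285.8 to 318484.3 per sample, and 26.5% to 29.8% of genes were listed at 0. The keratins KRT7, KRT8 and KRT18 stood at 52.76 to 94.56 FPKM, KRT19 at 1.19 to 2.10 FPKM and PAX8 at 12.33 to 24.08 FPKM. MUC16, which encodes the antigen CA125, did not exceed 0.01 FPKM, EPCAM reached 1.13 FPKM and WT1 0.71 FPKM. The leukocyte marker PTPRC was at 0 in all samples and the summed fibroblast markers did not exceed 0.33 FPKM, whereas the endothelial marker CDH5 stood at 2.11 to 3.64 FPKM with VWF at most 0.04 FPKM. Sample shNC 1 stood apart, with a Pearson correlation of 0.926 to 0.955 with the others. Its difference from the other shNC samples followed the GC content of the transcripts (Spearman rho 0.613 over 11385 genes of the same libraries). It also followed their length, less closely (Spearman rho -0.35). Such a dependence on GC content was not confined to shNC sample 1. Within the shPQBP1 group, samples 1 and 2 deviated from the others with Spearman rho -0.325 and 0.403. The log2 fold change between the groups also followed GC content over these genes (Spearman rho -0.459, or -0.236 without shNC sample 1). With transcript length its Spearman rho was 0.206, or 0.074 without that sample.

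**Figure D1:**
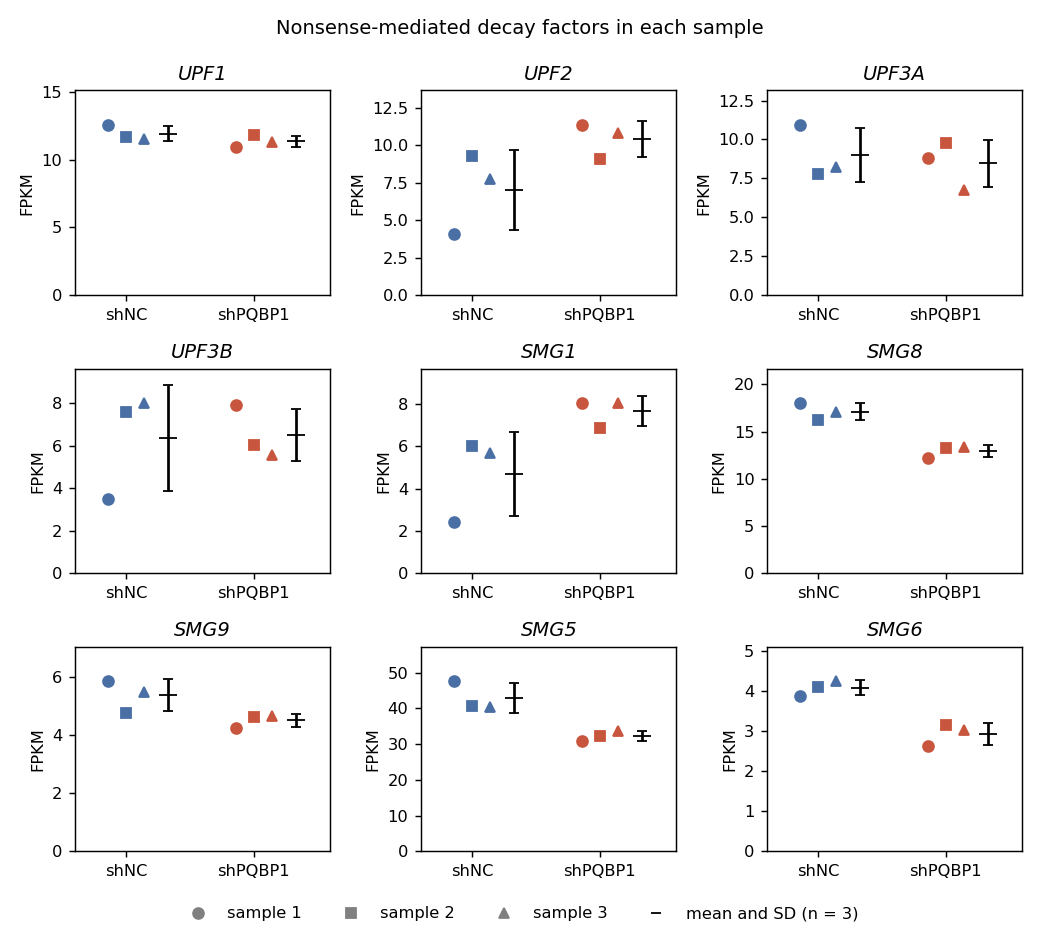
FPKM of the 9 NMD factors in each of the 3 shNC (blue) and 3 shPQBP1 (red) samples, with marker shape giving the sample number and black bars the mean and SD of each group. Groups do not overlap for SMG1, SMG8, SMG9, SMG5 and SMG6, as for 34.4% of all genes tested. Sample shNC 1 is far below the other shNC samples for UPF2, UPF3B and SMG1.

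Among the core factors, the helicase UPF1 had, with SMG8, the smallest SE of the 9 mRNAs. It measured 12.62, 11.69 and 11.55 FPKM in shNC samples 1 to 3 and 10.96, 11.82 and 11.31 FPKM in shPQBP1 samples 1 to 3. The groups overlapped, with means of 12.0 ± 0.582 and 11.4 ± 0.432 FPKM (SD, n = 3 each). The log2 fold change of UPF1 was -0.07 ± 0.08 (SE, limma, adjusted p = 0.578), with a 95% interval of -0.26 to 0.12. That interval covers only the spread between samples in this fit. After the GC and length correction given below, the value was 0.09 ± 0.05 (SE, limma, adjusted p = 0.292).

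UPF2, the bridge between UPF1 and the UPF3 proteins, measured 4.08, 9.27 and 7.74 FPKM in the shNC samples and 11.39, 9.11 and 10.82 FPKM in the shPQBP1 samples. The groups overlapped through shNC sample 2 and shPQBP1 sample 2, and shNC sample 1 was the lowest by a wide margin. Its log2 fold change was 0.64 ± 0.30 (SE, limma, adjusted p = 0.252), and without shNC sample 1 it was 0.29. The ratio of UPF2 to UPF1 FPKM within a sample was 0.323, 0.793 and 0.67 in the shNC samples and 1.04, 0.771 and 0.957 in the shPQBP1 samples. These ratios overlapped as well (two-sided exact permutation p = 0.2).

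The paralogs UPF3A and UPF3B, which link the decay complex to exon junctions, differed in opposite directions between shNC sample 1 and the other shNC samples. UPF3A measured 10.96, 7.76 and 8.26 FPKM in the shNC samples and 8.83, 9.77 and 6.78 FPKM in the shPQBP1 samples. UPF3B measured 3.49, 7.59 and 8.01 FPKM in the shNC samples and 7.89, 6.02 and 5.57 FPKM in the shPQBP1 samples. In shNC sample 1, UPF3A was at its highest and UPF3B at its lowest of all 6 samples, and both genes overlapped between the groups. The log2 fold change of UPF3A was -0.09 ± 0.19 (SE, limma, adjusted p = 0.787) and turned to 0.06 without shNC sample 1. For UPF3B it was 0.10 ± 0.33 (SE, limma, adjusted p = 0.863) and turned to -0.28 without that sample. The ratio of UPF3A to UPF3B FPKM was 3.14, 1.02 and 1.03 in the shNC samples and 1.12, 1.62 and 1.22 in the shPQBP1 samples. UPF3A thus had the higher FPKM of the pair in every sample, by 1.02 to 1.62 times in the 5 samples other than shNC sample 1. The ratios did not separate the groups (two-sided exact permutation p = 1, log2 difference -0.19, or 0.34 without shNC sample 1).

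Within the kinase complex, SMG1 and its partners SMG8 and SMG9 differed in direction. SMG1, the kinase that phosphorylates UPF1, measured 2.41, 6.0 and 5.69 FPKM in the shNC samples and 8.06, 6.85 and 8.06 FPKM in the shPQBP1 samples. All 3 shPQBP1 samples lay above every shNC sample, and the range of 3.59 FPKM within the shNC group was larger than the 0.85 FPKM between the groups. The log2 fold change of SMG1 was 0.79 ± 0.35 (SE, limma, p = 0.0593, adjusted p = 0.227, exact permutation p = 0.1), and without shNC sample 1 it was 0.38 (limma, adjusted p = 0.102). A permutation p of 0.1 is the smallest that 3 against 3 samples can give.

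SMG8, which regulates the activity of SMG1, measured 18.05, 16.22 and 17.05 FPKM in the shNC samples and 12.16, 13.26 and 13.40 FPKM in the shPQBP1 samples. The groups did not overlap, and the means of 17.1 ± 0.916 and 12.9 ± 0.679 FPKM (SD, n = 3 each) differed by more than the spread within either group. Its log2 fold change was -0.40 ± 0.08 (SE, limma, p = 0.00246, adjusted p = 0.0592, exact permutation p = 0.1), a ratio of 0.758. The value was -0.36 without shNC sample 1. SMG9, which pairs with SMG8, measured 5.88, 4.78 and 5.50 FPKM in the shNC samples and 4.27, 4.64 and 4.66 FPKM in the shPQBP1 samples. Its groups did not overlap, but only 0.12 FPKM lay between the lowest shNC sample and the highest shPQBP1 sample. The log2 fold change of SMG9 was -0.24 ± 0.11 (SE, limma, p = 0.0584, adjusted p = 0.226, exact permutation p = 0.1).

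Ratios within the complex followed these differences. The ratio of SMG8 to SMG1 FPKM was 7.49, 2.70 and 3.00 in the shNC samples and 1.51, 1.94 and 1.66 in the shPQBP1 samples. That of SMG9 to SMG1 was 2.44, 0.797 and 0.967 in the shNC samples and 0.53, 0.677 and 0.578 in the shPQBP1 samples. Both ratios were lower in every shPQBP1 sample, with log2 differences of -1.21 and -1.06, or -0.75 and -0.57 without shNC sample 1. SMG1 was higher, and SMG8 and SMG9 lower, in every shPQBP1 sample. The separation of both ratios, and their exact permutation p of 0.1, were thus fixed in advance and add no support. The ratio of SMG8 to SMG9 was steadier, at 3.07, 3.39 and 3.10 against 2.85, 2.86 and 2.88, and it too did not overlap between the groups (log2 difference -0.15, exact permutation p = 0.1). These 3 ratios reuse the values of the same 3 genes and are not independent of each other.

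**Figure D2:**
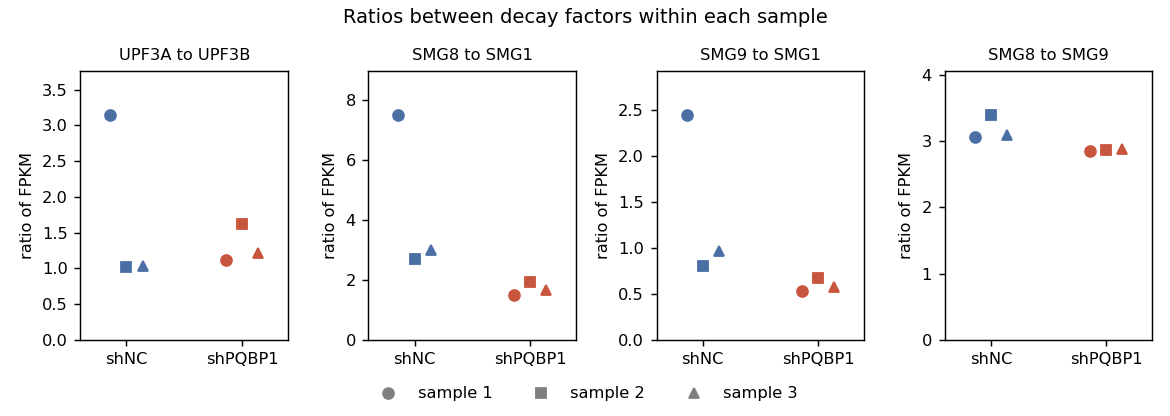
Ratio of FPKM between pairs of factors in each shNC (blue) and shPQBP1 (red) sample, with marker shape giving the sample number. SMG8 to SMG1 and SMG9 to SMG1 are lower in all shPQBP1 samples, SMG8 to SMG9 lies between 2.85 and 3.39 in all 6 samples, and UPF3A to UPF3B overlaps between the groups.

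The effectors SMG5 and SMG6 were lower in every shPQBP1 sample. SMG5, the adaptor that binds phosphorylated UPF1, was the most abundant of the 9 mRNAs in FPKM, with 47.71, 40.65 and 40.46 FPKM in the shNC samples and 30.78, 32.42 and 33.79 FPKM in the shPQBP1 samples. The groups were separated by 6.67 FPKM. Its log2 fold change was -0.41 ± 0.09 (SE, limma, p = 0.00414, adjusted p = 0.0739, exact permutation p = 0.1), a ratio of 0.755, and it was -0.33 without shNC sample 1. SMG6, the endonuclease that cuts the mRNA near the premature stop codon, measured 3.88, 4.11 and 4.25 FPKM in the shNC samples and 2.63, 3.14 and 3.03 FPKM in the shPQBP1 samples. The groups did not overlap, and shNC sample 1 was close to the other shNC samples for this gene. The log2 fold change of SMG6 was -0.47 ± 0.10 (SE, limma, p = 0.00364, adjusted p = 0.069, exact permutation p = 0.1), a ratio of 0.724, and it was -0.50 without shNC sample 1. The ratio of SMG5 to SMG6 was 12.3, 9.89 and 9.52 in the shNC samples and 11.7, 10.3 and 11.2 in the shPQBP1 samples, and overlapped between the groups. In a bulk sample, fewer cells that express a gene and less RNA per cell cannot be told apart.

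Counted over the 9 factors, 0 passed at an adjusted p under 0.05 (limma), against 2.91% of the 11413 genes tested (1.73% higher and 1.18% lower in shPQBP1). At an unadjusted p under 0.05, 3 of the 9 were lower (SMG5, SMG6 and SMG8) and 0 higher, against 23.6% of all genes (11.9% higher and 11.7% lower). Groups did not overlap for 5 of the 9 factors, SMG1 higher and SMG5, SMG6, SMG8 and SMG9 lower, against 34.4% of all genes (17.3% higher and 17.1% lower). The median log2 fold change was -0.09 over the 9 factors and 0.02 over all genes tested.

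**Figure D3:**
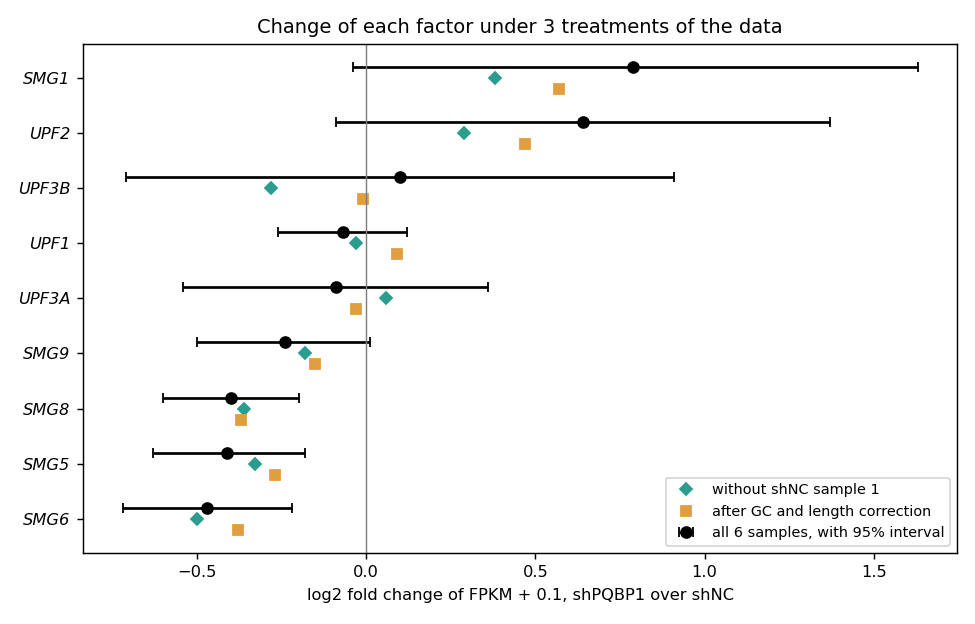
Log2 fold change of each factor, shPQBP1 over shNC, from all 6 samples with its 95% interval (black, limma), without shNC sample 1 (green) and after the dependence on GC and length was removed (orange). Intervals for SMG5, SMG6 and SMG8 lie below 0, whereas SMG1 and UPF2 move toward 0 under both alternatives and UPF3B ends below 0.

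The values in shNC sample 1 divided the factors by the GC content of their transcripts. UPF2, UPF3B and SMG1, with a GC content of 41.2%, 41.3% and 43.1%, lay 1.04, 1.14 and 1.24 below the mean of shNC samples 2 and 3 on the log2 scale. The other 6 transcripts, with a GC content of 47.4% to 60.4%, deviated by -0.105 (SMG6) to 0.448 (UPF3A). In length, UPF2, UPF3B and SMG1 have 5168, 2343 and 16062 bases, against 2370 to 5974 bases for the other 6. Over all genes, the median deviation ran from -0.60 at a GC content of 36.8% to 0.24 at 63.5%, and it was -0.24 at 41.7%. UPF2, UPF3B and SMG1 were thus further below shNC samples 2 and 3 than most genes of like GC content. After the dependence on GC content and length was removed from each sample, SMG1 remained lowest in shNC sample 1, at 2.67 against 3.52 and 3.60 on the log2 scale. UPF2 was likewise at 2.41 against 3.24 and 3.02, and UPF3B at 1.66 against 2.55 and 2.65.

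**Figure D4:**
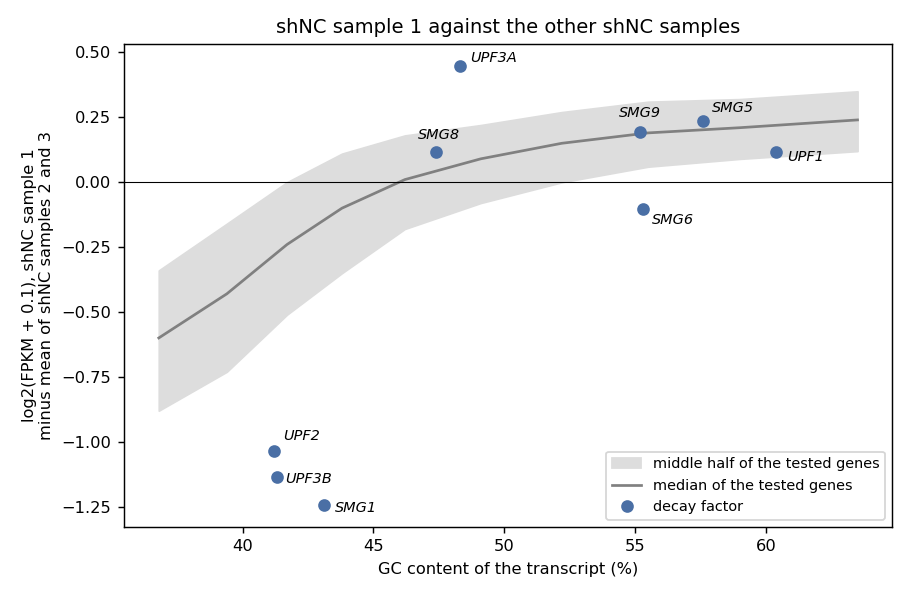
Difference of shNC sample 1 from the mean of shNC samples 2 and 3 in log2(FPKM + 0.1), against the GC content of the transcript in percent, for the 9 factors (points) and for all genes in 10 bins (line, median; band, 25th to 75th percentile). UPF2, UPF3B and SMG1 lie below the band, at -1.04, -1.14 and -1.24, SMG6 lies less far below it, at -0.105, and UPF3A lies above it, at 0.448.

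After the same correction, SMG8 and SMG5 passed the test, with log2 fold changes of -0.37 and -0.27 (limma, adjusted p = 0.0177 and 0.0322), and SMG6 had -0.38 (limma, adjusted p = 0.0641). Of all genes, 8.24% passed in that fit, against 2.91% without the correction. With shNC sample 1 left out as well, SMG8 and SMG6 passed, at -0.37 and -0.44 (limma, adjusted p = 0.0357 and 0.0488), and SMG5 had -0.25 (limma, adjusted p = 0.061), with 6.71% of all genes passing. The correction gave log2 fold changes of 0.57 for SMG1, 0.47 for UPF2, 0.09 for UPF1, -0.03 for UPF3A, -0.01 for UPF3B and -0.15 for SMG9, none of which passed at an adjusted p under 0.05. Over all genes, the median log2 fold change without correction was -0.11 at a GC content of 55.5% and -0.14 at 59.0%. Without shNC sample 1 these medians were -0.04 and -0.07. At 39.4% and 41.7% they were 0.23 and 0.15, or 0.08 and 0.06 without that sample. The part of transcript composition in the differences without correction was not tested further.

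In the shNC samples the factors were ordered SMG5 (42.9 ± 4.13 FPKM), SMG8 (17.1 ± 0.916 FPKM), UPF1 (12.0 ± 0.582 FPKM), UPF3A (8.99 ± 1.72 FPKM), UPF2 (7.03 ± 2.67 FPKM), UPF3B (6.36 ± 2.50 FPKM), SMG9 (5.39 ± 0.559 FPKM), SMG1 (4.70 ± 1.99 FPKM) and SMG6 (4.08 ± 0.187 FPKM), each as mean ± SD with n = 3. FPKM is scaled to transcript length but not to GC content. SMG1, UPF3A, SMG6 and SMG8 also share sequence with other genes, so that this order only describes the FPKM. SMG5, SMG8 and UPF1 each stood apart from the next gene, and from UPF3A down each gene overlapped its neighbour. In the shPQBP1 samples the first 3 places were the same, at 32.3 ± 1.51, 12.9 ± 0.679 and 11.4 ± 0.432 FPKM. UPF2 followed at 10.4 ± 1.19 FPKM, UPF3A at 8.46 ± 1.53 FPKM, SMG1 at 7.66 ± 0.699 FPKM and UPF3B at 6.49 ± 1.23 FPKM. Neighbours from UPF1 to UPF3B overlapped there, whereas SMG9 (4.52 ± 0.220 FPKM) and SMG6 (2.93 ± 0.268 FPKM) stood apart. The middle of the shNC order rested on shNC sample 1. Over shNC samples 2 and 3 alone, UPF2 (mean 8.5 FPKM) stood above UPF3A (8.01 FPKM), and SMG1 (5.85 FPKM) above SMG9 (5.14 FPKM).

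Some of the factors share sequence with other genes, which limits how their reads can be assigned. SMG1 shares 11.5% of its 100-base windows with other genes, among them the pseudogenes SMG1P1 to SMG1P7. Of these 7 copies 5 were tested, and their log2 fold changes were all above 0, from 0.13 to 0.85 with a median of 0.32. SMG1P5 measured 1.08, 0.87 and 1.32 FPKM in the shNC samples and 2.84, 1.70 and 1.69 FPKM in the shPQBP1 samples (log2 fold change 0.85 ± 0.25, SE, limma, adjusted p = 0.127). Like SMG1, the copies SMG1P1, SMG1P6 and SMG1P7 were lowest of the shNC samples in shNC sample 1, whereas SMG1P2, SMG1P3, SMG1P4 and SMG1P5 were not. UPF3A shares 25.9% of its windows with its pseudogenes UPF3AP1 and UPF3AP2, and none of UPF3AP1, UPF3AP2 and UPF3AP3 exceeded 0.85 FPKM in any sample. SMG6 shares 28.6% of its windows with HIC1, a transcription factor gene on the opposite strand whose exons overlap it. Whether the libraries kept strand is not given in the sources used here, so that reads in the overlap cannot be assigned to either gene with certainty. HIC1 measured 2.59, 1.8 and 1.9 FPKM against 1.61, 1.85 and 1.66 FPKM and overlapped between the groups (log2 fold change -0.27 ± 0.17, SE, limma, adjusted p = 0.35). SMG8 shares 10.5% of its windows with an overlapping annotated gene on the same strand (ENSG00000265303). UPF1, UPF2, UPF3B, SMG5 and SMG9 share none.

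The genes whose values ran most closely with 2 of the factors over the 6 samples were found by Pearson correlation of log2(FPKM + 0.1), as a description. GALNT2 (r = 0.9981), CD81 (0.9963) and DOHH (0.9925) were nearest to UPF1. ADD3 (0.9997), AL390728 (0.9992) and TIA1 (0.9985) were nearest to SMG1, the factor with the largest log2 fold change. The 6 points include shNC sample 1, in which transcripts of low GC content tended to be low.

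The other genes of the pathway were described from 7 lists holding 63 genes, all of which were tested. Of these, 1 was lower and 0 higher in shPQBP1 at an adjusted p under 0.05 (limma), against 1.18% and 1.73% of all genes. At an unadjusted p under 0.05, 15 were lower and 3 higher, against 11.7% and 11.9% of all genes. Groups did not overlap for 17 lower and 6 higher, against 17.1% and 17.3% of all genes, and the median log2 fold change was -0.08. The gene that passed was ATF3, a stress-induced transcription factor whose mRNA is a described NMD substrate. It measured 5.79, 5.67 and 6.06 FPKM in the shNC samples and 4.38, 3.86 and 3.82 FPKM in the shPQBP1 samples. The log2 fold change of ATF3 was -0.53 ± 0.09 (SE, limma, adjusted p = 0.0384), and it missed the threshold at a like size without shNC sample 1 (-0.54, limma, adjusted p = 0.0504) and after the GC and length correction (-0.45, limma, adjusted p = 0.06). Of the 10 substrates listed, 3 were lower and 0 higher at an unadjusted p, with a median log2 fold change of -0.19.

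The counts of the single lists are small and stand beside 11.7% lower and 11.9% higher over all genes at an unadjusted p under 0.05. Among 6 further NMD factors, 3 were lower and 1 higher at an unadjusted p under 0.05. NBAS, which acts in NMD at the endoplasmic reticulum, measured 5.37, 5.03 and 5.50 FPKM in the shNC samples and 6.69, 6.50 and 6.53 FPKM in the shPQBP1 samples (log2 fold change 0.31 ± 0.08, SE, limma, adjusted p = 0.0932). The ATPase RUVBL2 had a log2 fold change of -0.36 ± 0.12 (SE, limma, adjusted p = 0.144). Of 10 exon junction complex genes, 2 were lower and 0 higher. EIF4A3, the RNA-binding helicase at the core of that complex, measured 21.28, 19.9 and 19.11 FPKM against 15.64, 16.81 and 15.89 FPKM (log2 fold change -0.32 ± 0.08, SE, limma, adjusted p = 0.0874). PYM1, which helps to take the complex off the mRNA, had -0.58 ± 0.23 with overlapping groups (SE, limma, adjusted p = 0.196).

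For the lists of steps after recognition, the shares over all genes at an unadjusted p under 0.05 were again 11.7% lower and 11.9% higher. Of 7 CCR4-NOT deadenylase genes, 2 were lower and 0 higher at that threshold. CNOT3 had a log2 fold change of -0.41 ± 0.09 (SE, limma, adjusted p = 0.0707). CNOT2 measured 3.43, 4.67 and 4.88 FPKM against 3.03, 3.03 and 2.53 FPKM, with -0.57 ± 0.16 (SE, limma, adjusted p = 0.117), and it passed without shNC sample 1 (adjusted p = 0.04) and after the GC and length correction (adjusted p = 0.0338). Of 9 decapping genes, 1 was lower and 0 higher. DCP1A, a cofactor of the decapping enzyme, had -0.35 ± 0.12 (adjusted p = 0.167), and the enzyme DCP2 had 0.63 ± 0.26 (SE, limma, adjusted p = 0.213). Of 15 exosome and SKI complex genes, 2 were lower and 2 higher. The nuclease DIS3L had 0.26 ± 0.07 (adjusted p = 0.115) and EXOSC8, a subunit of the exosome ring, 0.27 ± 0.09 (SE, limma, adjusted p = 0.158). Of 6 termination, cap and tail binding genes, 2 were lower and 0 higher, with -0.55 ± 0.15 for the release factor gene GSPT2 (adjusted p = 0.104) and -0.26 ± 0.09 for the poly(A)-binding protein gene PABPC1 (SE, limma, adjusted p = 0.143).

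**Figure D5:**
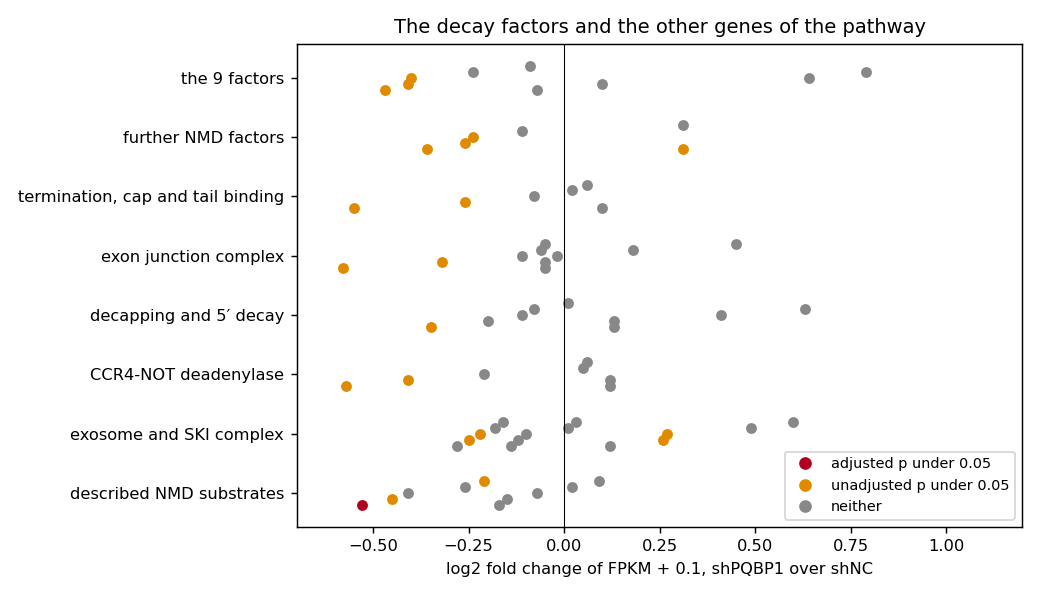
Log2 fold change of FPKM + 0.1, shPQBP1 over shNC, for the 9 factors and for the 63 other genes in 7 lists, 1 point per gene, coloured by the limma p. ATF3 is the single gene with an adjusted p under 0.05, at -0.53, and SMG5, SMG6 and SMG8 are the factors with an unadjusted p under 0.05.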

How the data were processed

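RNA from HEY cells was sequenced on an Illumina instrument. The submitters' processing notes name HISAT2 2.2.0, SAMtools 1.9, StringTie 1.3.0, edgeR and hg38. The deposited table holds FPKM per gene and sample, computed by the authors, and no file of counts was used. Its columns of fold change, p, q and regulation between the groups were not used. All 6 columns matched 1 sample each.

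A gene entered the test where its mean over the 6 samples reached 1 FPKM (11413 of 32679). The test was that of limma 3.58.1 in R 4.3.3 (lmFit, then eBayes with the trend option) on log2(FPKM + 0.1), two-sided, with Benjamini-Hochberg adjustment over all genes tested. A count test could not be used on FPKM, so that edgeR was not repeated. Fold changes are on the log2(FPKM + 0.1) scale, which understates changes of low genes. Exact permutation tests used the 6 values of a gene or ratio. The limma step was run on simulated data, with planted changes larger than those of the factors and no dependence on GC content or length. That run therefore does not show how changes of the size seen here are called.

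GC content and length were those of the Ensembl canonical transcript (GENCODE 44, hg38), and their trend was removed from each sample by natural splines with 5 degrees of freedom. Same-numbered samples did not deviate together (Pearson -0.186, -0.138 and -0.011), so that they were not treated as pairs. Alternatives changed the scaling, the filter, the pseudocount, the trend, the block, the correction and the samples.

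The 9 genes and the lists were chosen with earlier results of these data known. Besides these 9, the genes named were PQBP1, the pseudogene copies, per list each gene at an adjusted p under 0.05 or otherwise the 2 with the smallest p, and the 3 genes correlating best with UPF1 and with SMG1. A further gene of this rule is not reported here. HIC1 was named for its overlap with SMG6, and the other overlapping gene for SMG8.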

Additional observations from a re-analysis of the deposited data

How the results depend on the processing

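Over 17 alternatives, of which 1 (the GC and length correction without shNC sample 1) was chosen after seeing the data, SMG5, SMG6, SMG8 and SMG9 kept log2 fold changes below 0, and SMG1 and UPF2 above 0, wherever they were tested. At an adjusted p under 0.05, 1 of the 9 factors passed with quantile normalization (SMG6), 1 with a mean FPKM of at least 10 (SMG8, where only UPF1, SMG5 and SMG8 entered), 2 after the correction (SMG8 and SMG5) and 2 when shNC sample 1 was left out as well, here called both changes (SMG8 and SMG6). At an unadjusted p, 3 to 6 factors passed when 1 sample was left out, and the 6 without shNC sample 2 were SMG5, SMG6, SMG8, SMG9, UPF2 and SMG1. Of all genes, 15.6% to 25.8% passed in these fits, the most without shNC sample 2. Log2 fold changes turned for UPF1 (0.09 after the correction, with or without the replicate block, and 0.08 after both changes), UPF3A (-0.20 to 0.06 with 1 sample left out, 0.07 after both changes) and UPF3B (-0.01 after the correction, with or without the block, -0.32 after both changes, and -0.28 to 0.31 with 1 sample left out). Of the 63 pathway genes, 0 passed without a filter, with a mean FPKM of at least 10 and with the replicate block, with or without the correction, 4 passed after the correction (EIF4A3, DCP1A, CNOT2 and, named after its value was seen, EXOSC9), 2 after both changes, and 0 or 1 with 1 sample left out. Of all genes, 417 (3.65%) passed with quantile normalization, 190 (0.619%) without a filter and 211 (5.76%) with a mean FPKM of at least 10. After the correction 938 (8.24%) passed, and 766 (6.71%) after both changes. With 1 sample left out, 30 to 466 (0.264% to 4.07%) passed. With the replicate block 0 of all genes passed at an adjusted p in limma (1840 at an unadjusted p), and 21 with the block and the correction. PQBP1 stayed at -2.04 and -1.86 in these fits (adjusted p = 0.0686 and 0.0543). The causes of these changes were not tested. Differences smaller than the intervals given could not be detected with 3 samples a group.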
